A study of Drosophila melanogaster with 30 samples.

Results

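The genes described here sense microbes and nucleic acids or carry the signal to the nucleus in the fruit fly, and they were measured in RNA from brains of male Drosophila melanogaster. They comprise every row of the deposited count table whose gene name starts with PGRP- (13 rows, the peptidoglycan recognition proteins) and 32 genes chosen by name, which gave 45 of the 17895 genes in the table, with no symbol missing. Each library was made from polyadenylated RNA of a pool of 30 brains, and the study set 4 mutants against wild type, each kept in groups (group-housed, GH) or alone (single-housed, SH), with 3 libraries in each of the 10 groups. The mutant genotypes were w+/Y; Or47b2/3;+/+ (Or47b, a pheromone receptor of the antenna), w+/Y; +/+; Or67dGAL4/GAL4 (Or67d, another pheromone receptor), w+/Y; +/+; fruLexA/4-40 (fru, a transcription factor of male courtship) and w-/Y; +/+; dsxf00683-d07058/f01649-d09625 (dsx, a transcription factor of sexual differentiation). The wild type was Canton-S (CS). All groups were male, and each mutated gene was represented by 1 genotype with its own background. The mutated gene and the other alleles of that genotype therefore cannot be told apart in any comparison with CS. The labels call the 3 libraries of a group biological replicates, each a pool of its own, without saying whether they came from separate rearings.

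Flies have no antibodies and defend themselves with recognition proteins that circulate or sit in membranes and switch on a few signalling pathways. In the Imd pathway, receptors of the PGRP family bind bacterial peptidoglycan and activate the NF-κB factor Relish through a chain of adaptors and enzymes. In the Toll pathway a cascade of serine proteases cleaves the cytokine Spätzle, which binds the Toll receptor and frees the factors Dorsal and Dif from their inhibitor Cactus. JAK/STAT signalling answers cytokines and stress, and cGAS-like receptors with STING sense nucleic acids. In the fly head these pathways are known from fat body, haemocytes and glia, and many of their components also have duties in development and in neurons.

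The libraries held 37.6 to 121 M estimated counts (median 48.3 M). The floor of 3 counts used for genes at 0 stood for 0.0282 to 0.0785 CPM (counts of a gene relative to all counts of the tested genes in the library, after TMM scaling). Mitochondrial genes took 2.51% to 14.1% of a library, and 12.4% to 14.1% in all dsx libraries. A deposited table marks 6 libraries as AC and 24 as notAC in a column named for dissection, without a key. Replicate 3 in both housings of Or47b and of fru, CS SH replicate 2 and CS GH replicate 3 were AC, and no Or67d or dsx library was. fru itself averaged 26.3 CPM in fru SH and 28.8 CPM in fru GH brains, against 173 CPM in CS SH and 179 CPM in CS GH brains. dsx averaged 9.48 CPM in dsx SH and 9.41 CPM in dsx GH brains, against 18.7 CPM in CS SH and 13.5 CPM in CS GH brains. Counts of Or67d were 0 in each of the 6 Or67d libraries, against 7, 13 and 28 counts in CS SH and 10, 18 and 14 counts in CS GH libraries. Or47b had 0 counts in all Or47b libraries, but with 5 counts in CS SH and 1 count in CS GH libraries in all, it could not check its label. Neuronal markers summed to 5777 to 9920 CPM and glial markers to 728 to 1433 CPM over the 30 libraries.

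Of the 45 genes, 41 were expressed enough in these brains to be tested. Per kilobase of exon, which allows levels to be set beside each other, nec (a serpin that restrains the proteases upstream of Toll) was highest at a mean of 36.6 CPM per kb. It was followed by key (the regulatory subunit of the IκB kinase of the Imd pathway) at 30.7 CPM per kb and by Stat92E (the STAT factor) at 27.4 CPM per kb. The inhibitor Cactus (cact) stood at 25 and Tl (the Toll receptor) at 24.1 CPM per kb. At the other end stood Tep1 (a secreted thioester protein related to complement) at 0.182 CPM per kb and PGRP-LF (a membrane protein that blocks the Imd receptor PGRP-LC) at 0.578 CPM per kb. Between these, 19 genes lay at 1 to 5 CPM per kb and 15 at 5 to 20 CPM per kb. The 4 genes left out by the filter on low counts were PGRP-SB2 (4 counts over all libraries), PGRP-SC1a (7 counts), PGRP-SC1b (28 counts) and cGlr1 (52 counts, with 0 in 7 libraries). PGRP-SC1a and PGRP-SC1b are near-identical copies, so their counts are uncertain as well as few.

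**Figure D1:**
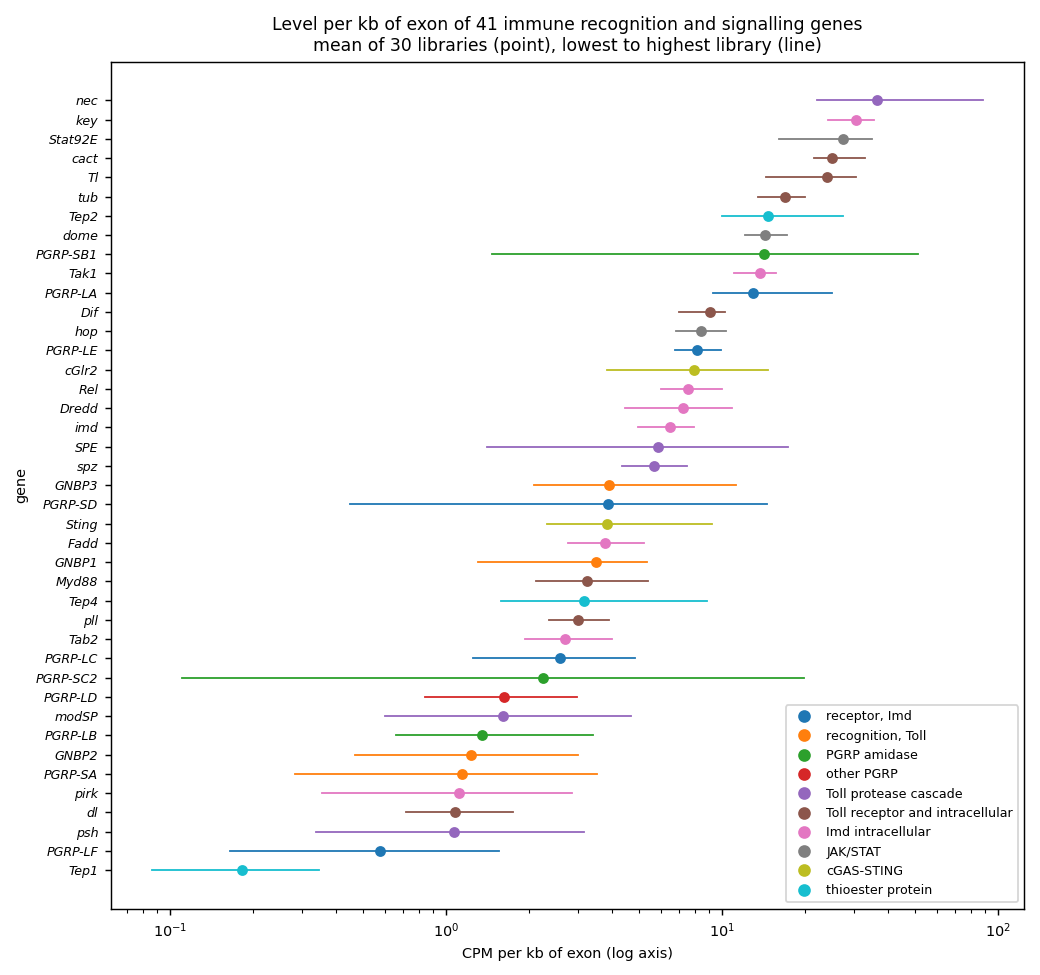
Expression of the 41 tested genes in CPM per kb of exon (log axis), where each point is the mean of the 30 libraries and each line runs from the lowest to the highest library, coloured by role. nec, key, Stat92E, cact and Tl were the highest, Tep1 and PGRP-LF the lowest, and the longest lines belong to the amidase genes PGRP-SC2 and PGRP-SB1.

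Ratios between groups were wide among the amidases and narrow among the JAK/STAT genes and most intracellular genes of the Imd and Toll pathways. The ratio of the highest to the lowest of the 10 group means was 36.7 for PGRP-SC2, 10.6 for PGRP-SB1, 7.09 for PGRP-SD, 5.84 for pirk, 4.49 for PGRP-SA and 3.70 for cGlr2. The median of this ratio within a role was 10.6 for the 3 tested amidases, 2.97 for the pair of cGlr2 and Sting, 2.71 for the 4 sensors upstream of Toll and 2.59 for the 5 genes of the protease cascade. It was 2.46 for the 5 PGRP genes grouped as Imd receptors and their modulators (PGRP-LC, PGRP-LE, PGRP-LA, PGRP-LF and PGRP-SD). It was 2.27 for the 3 thioester genes. It was 1.40 for the 8 intracellular Imd genes, 1.40 for the 7 Toll receptor and intracellular genes and 1.26 for the 3 JAK/STAT genes, which include the receptor gene dome. In all, 14 of the 41 genes had group means less than 1.5-fold apart and 21 had group means 2-fold or more apart. These ratios are of CPM means without the batch term. The lowest means of the tested amidases and PGRP-SD lay in Or67d or dsx, which had no AC library. With AC, PGRP-SC2 was higher by 1.27 log2, PGRP-SB1 by 1.26 and PGRP-SD by 1.09. The highest PGRP-SC2 mean, in Or47b GH, rests on the AC library at 14.8 CPM, beside 1.46 and 1.17 CPM. Its lowest, in Or67d GH, rests on 7, 6 and 13 counts. A test of any difference among the 10 groups called 34 of the 41 genes, where 62.9% of all tested genes were called. Here and below a call is a Benjamini-Hochberg adjusted p under 0.05 over 11269 genes in edgeR's quasi-likelihood test, with a term for the AC libraries. The 7 genes without a call were PGRP-LE (an intracellular Imd receptor), GNBP3 (a sensor of fungal glucans), psh (the protease Persephone), cact, Dif (an NF-κB factor of the Toll pathway), Tak1 (a kinase of the Imd pathway) and Rel (the factor Relish). Their adjusted p lay between 0.0916 and 0.873.

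Many of these genes differed between AC and notAC libraries. The batch term was called for 34 of the 41 genes, 27 higher and 7 lower in AC, where 54.7% of all tested genes were called for it. Over all 41 genes, 29 had their highest library in AC. Neither the direction in AC nor the highest library was counted over all tested genes, so these counts do not set the 41 genes apart. Fat body markers summed to 922 to 4220 CPM in AC and 469 to 1918 CPM in notAC libraries. Photoreceptor markers summed to 423 to 1118 CPM in AC and 96.0 to 686 CPM in notAC libraries, and muscle markers to 51.5 to 166 CPM in AC and 8.70 to 104 CPM in notAC libraries. The part of other tissue in the values was not tested, and in pooled tissue fewer cells of a type and less RNA per cell cannot be told apart. AC values are therefore pointed out below, and a value from the 24 notAC libraries alone is given where a call was lost in them.

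**Figure D2:**
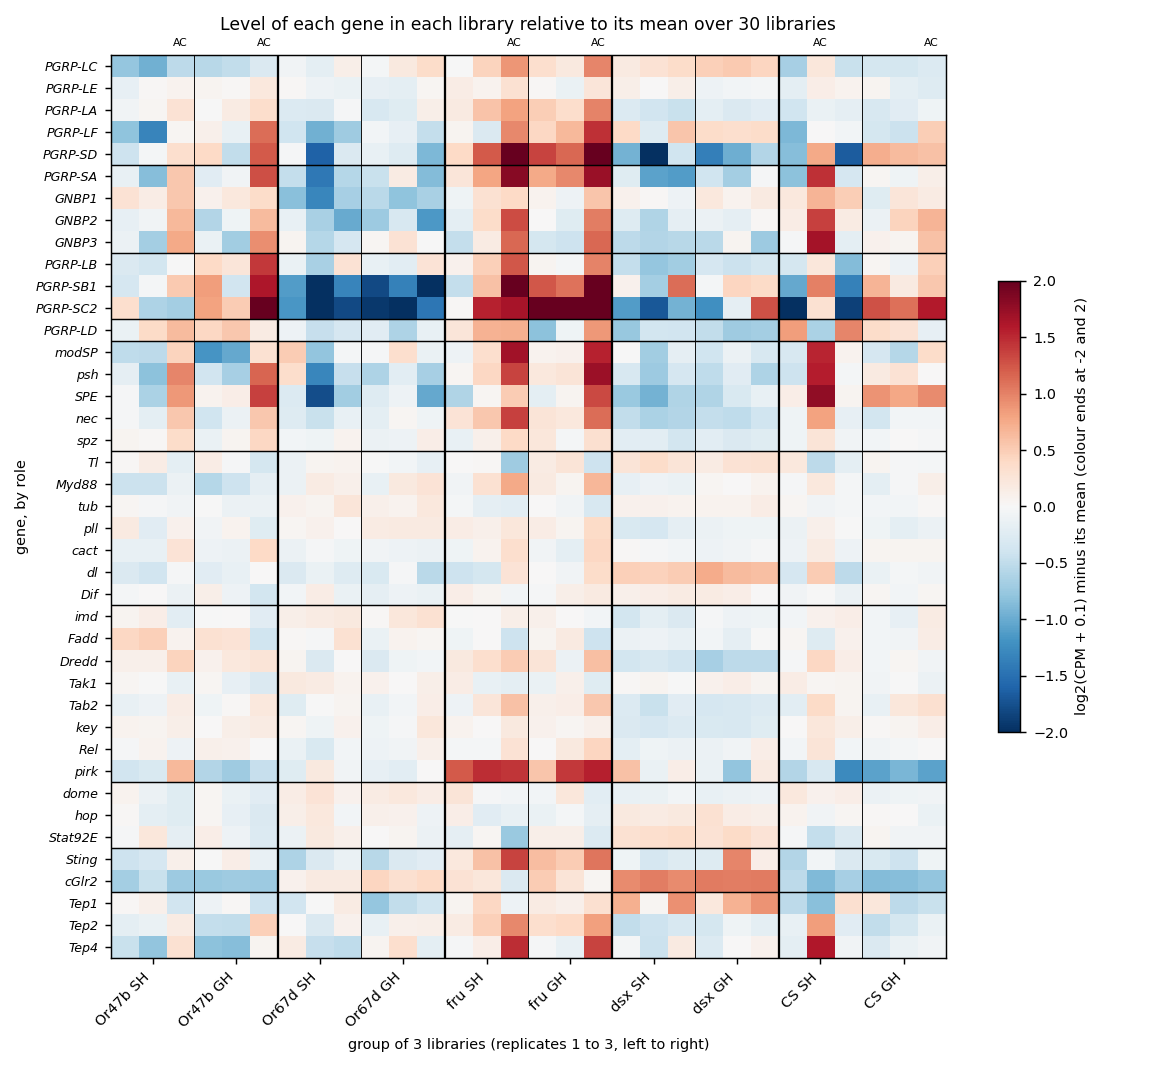
Heat map of the 41 tested genes (rows, grouped by role) in the 30 libraries (columns, in the order Or47b, Or67d, fru, dsx and CS, with SH left of GH), where colour is log2(CPM + 0.1) minus the gene's mean over all libraries and AC libraries are marked. Of the 41 genes, 29 have their highest library in an AC column, a share not counted over all tested genes. cGlr2 is high in all dsx columns, and the intracellular genes of the Imd, Toll and JAK/STAT pathways vary less than the amidases.

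Against CS, the genes that changed in fru brains were all higher, those in dsx and Or67d brains went both ways, and those in Or47b brains were lower and few. In Or47b GH brains 0 genes were called by edgeR, with 4 at an unadjusted p under 0.05 (15.8% of all genes) and 1 called by DESeq2. Of all tested genes 3.79% were called there, 1.72% higher and 2.07% lower. In Or67d GH brains 5 genes rose and 4 fell, where 9.77% of all genes were called, 5.13% higher and 4.64% lower. In fru GH brains 12 genes rose and 0 fell, where 17% of all genes were called, 9.37% higher and 7.65% lower. In dsx GH brains 6 genes rose and 5 fell, where 21.7% of all genes were called, 8.12% higher and 13.6% lower. In SH the counts were 0 higher and 3 lower in Or47b (4.2% of all genes higher, 4.23% lower and 8.43% either way). They were 1 higher and 2 lower in Or67d (2.48% of all genes higher, 3.16% lower and 5.64% either way). In fru SH 9 rose and 0 fell (7.47% of all genes higher, 6.12% lower and 13.6% either way). In dsx SH 9 rose and 9 fell (18.7% of all genes higher, 23.4% lower and 42.1% either way). The share of the 41 genes called stood above that of all genes in Or67d GH (22%), fru GH (29.3%) and fru SH (22%), and near it in dsx SH (43.9%), dsx GH (26.8%), Or47b SH (7.32%) and Or67d SH (7.32%). The unadjusted p was under 0.05 for 16 of the 41 genes in fru GH, all of them higher, where it was so for 29.8% of all tested genes. In fru SH it was under 0.05 for 15, of which 14 were higher and 1 was lower, where it was so for 27.3% of all tested genes. DESeq2 also called 0 falls in fru in both housings. The median log2 change of the 41 genes was 0.20 in fru GH and 0.16 in fru SH, against -0.03 and -0.01 for all tested genes. Left-out libraries cut 3 of these counts by more than 1.5 times, to 5 genes in Or67d GH without Or67d GH replicate 3, to 6 in dsx GH without dsx GH replicate 2 or CS GH replicate 2, and to 0 in Or47b SH without Or47b SH replicate 2 or 3 or CS SH replicate 2 or 3. In the notAC libraries alone 7 genes were called in fru GH, 8 in Or67d GH and 0 in Or47b SH. Of all tested genes 1256 were called there in fru GH, 1150 in Or67d GH and 310 in Or47b SH. With all libraries these counts were 1918, 1101 and 950. That fit leaves out libraries of Or47b, fru and CS but no Or67d library, so its counts cannot rank the mutants. The same CS libraries serve all 4 mutants in a housing, so the comparisons are not independent.

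**Figure D3:**
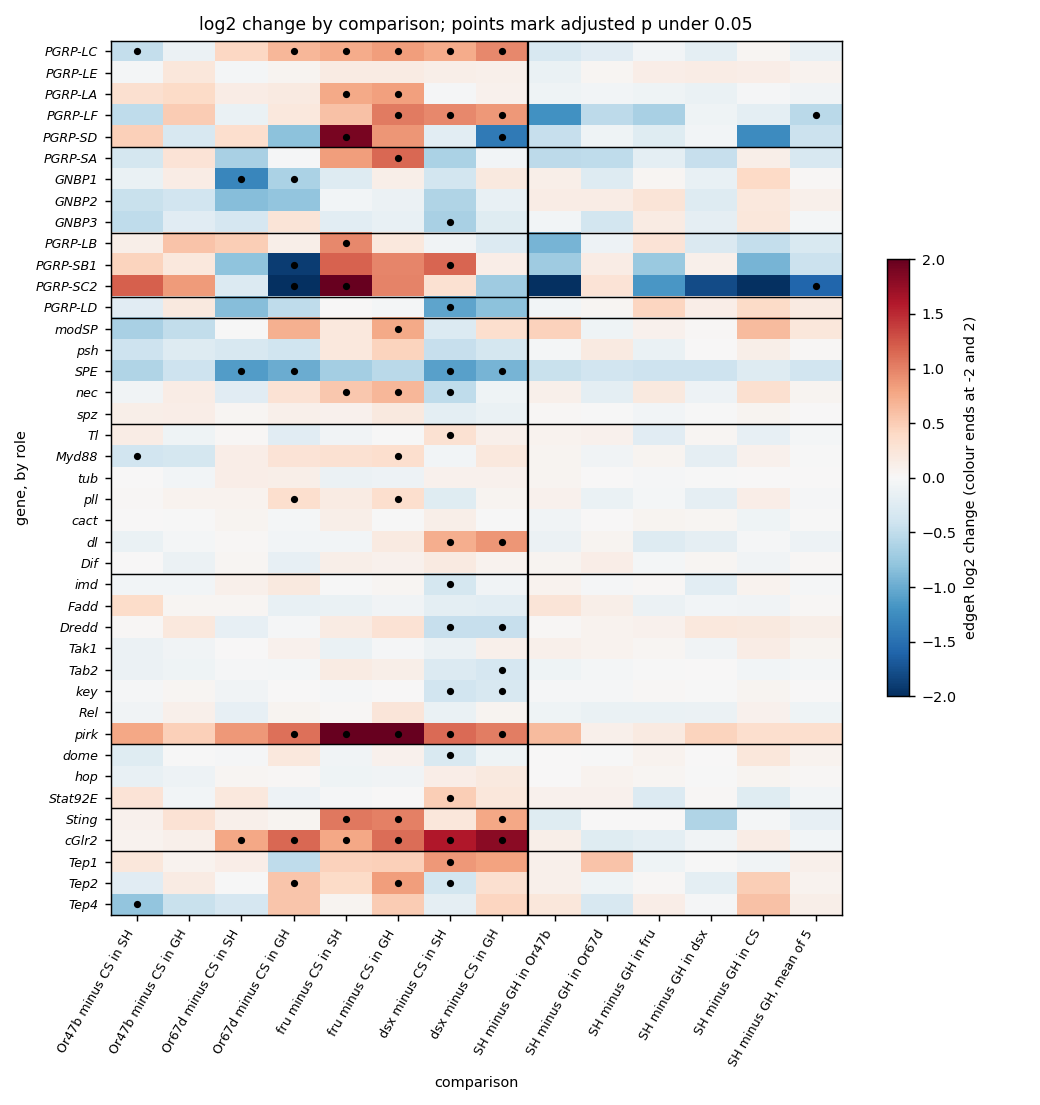
Heat map of the edgeR log2 change of the 41 tested genes (rows, grouped by role) in the 8 comparisons of a mutant with CS and the 6 comparisons of SH with GH, with a dot where the adjusted p was under 0.05. cGlr2 and PGRP-LC carry dots in 6 of the 8 mutant comparisons, all 21 dots of the fru comparisons are on higher genes, and the housing columns hold 2 dots, both for the mean of the 5 genotypes.

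Genes that passed the same way in SH and in GH numbered 0 in Or47b (2.38% of all genes) and 1 higher and 2 lower in Or67d (3.56% of all genes). They numbered 6 higher in fru (8.21% of all genes) and 5 higher and 3 lower in dsx (17.3% of all genes). Over the 8 comparisons with CS and the averaged housing effect 67 calls were made, of which 28 held without each library in turn and under the other scaling, filter, test and batch settings. In both housings these were cGlr2 in Or67d, fru and dsx, PGRP-LC, PGRP-LA and pirk in fru, and dl, Dredd and key in dsx. In 1 housing they were Sting and Tep2 in fru GH, GNBP1 in Or67d SH, PGRP-LC in dsx GH, and SPE, nec, imd, pirk, dome and Stat92E in dsx SH. In the notAC libraries alone 20 of the 67 calls were lost. Without the batch term 32 were lost, among them both housing calls and all 3 calls in Or47b SH. In Or67d these were SPE in both housings and PGRP-LC, pll, pirk and Tep2 in GH. In fru they were nec in both housings, PGRP-SD, PGRP-LB and PGRP-SC2 in SH, and PGRP-LF, PGRP-SA, modSP, Myd88 and pll in GH. In dsx they were PGRP-LF in both housings, PGRP-LC, PGRP-SB1, Tl and Tep2 in SH, and PGRP-SD, SPE, Tab2, pirk and Sting in GH. Exons of PGRP-LF, PGRP-SD, SPE, pll, imd, Dredd, key, Sting, Tep2 and PGRP-LD overlap another gene in the annotation. So do those of spz, cact and Dif, which had none of these calls. For SPE, Dredd and PGRP-LD an overlapping gene lies on the same strand, where strand does not separate the reads. For the others it is not stated whether counting used strand, so their reads and those of the neighbour cannot be told apart.

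Among the Imd receptors and their modulators, PGRP-LC rose in fru, dsx and Or67d GH brains, and its neighbour PGRP-LA rose in fru. PGRP-LC (FBgn0035976, build BDGP6, 3L 9338810 to 9348336, plus strand) encodes the membrane receptor for bacterial peptidoglycan. In fru it had 9.11, 12.6 and 17.1 CPM in SH and 11.7, 10.5 and 18.1 CPM in GH libraries. In dsx it had 10.5, 11.3 and 11.9 CPM in SH and 12.9, 13.3 and 12.4 CPM in GH libraries, against 5.77, 10.8 and 6.74 CPM in CS SH and 7.19, 7.15 and 7.57 CPM in CS GH libraries. In GH every fru and dsx library lay above every CS library, while in SH the CS library marked AC (10.8 CPM) reached into the range of both mutants. PGRP-LC rose in fru by 0.74 ± 0.139 log2 in SH (adjusted p = 0.000589) and by 0.83 ± 0.140 log2 in GH (adjusted p = 0.000153; edgeR, log2 change ± SE throughout). In dsx it rose by 0.73 ± 0.143 log2 in SH (adjusted p = 0.000358) and 0.97 ± 0.142 log2 in GH (adjusted p = 2.92e-05). The call in dsx SH was lost without the batch term.

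In Or67d, PGRP-LC had 8.74, 8.07 and 10.02 CPM in SH and 8.93, 10.5 and 11.9 CPM in GH libraries, all 3 GH libraries above the CS GH range. It rose in Or67d GH by 0.67 ± 0.142 log2 (adjusted p = 0.00287), a call lost without the batch term. In Or47b it had 5.31, 4.70 and 6.35 CPM in SH and 6.26, 6.49 and 7.51 CPM in GH libraries, which overlapped CS in both housings. It fell by 0.48 log2 in Or47b SH (SE 0.142, adjusted p = 0.0399). This call was lost without Or47b SH replicate 2 or 3 or CS SH replicate 2 or 3, with an adjusted p of up to 0.25, and in the notAC libraries (adjusted p = 0.274).

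PGRP-LA (FBgn0035975, 3L 9334332 to 9338336, plus strand) encodes a membrane protein that modulates the Imd pathway and lies directly before PGRP-LC, with PGRP-LF directly after it. It had 29.8, 39.1 and 46.3 CPM in fru SH and 36.9, 33.8 and 52.4 CPM in fru GH libraries, against 19.9, 24.1 and 23.2 CPM in CS SH and 21.0, 22.5 and 24.9 CPM in CS GH libraries. All 6 fru libraries lay above all 6 CS libraries, with the AC library highest in each fru group. The rise was 0.76 ± 0.112 log2 in SH (adjusted p = 3.47e-05) and 0.83 ± 0.112 log2 in GH (adjusted p = 1.01e-05). In Or47b GH it was the gene with the smallest p, at a log2 change of 0.38 (adjusted p = 0.0621), followed by Myd88 at -0.36 (adjusted p = 0.0783), neither of them called.

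PGRP-LF (FBgn0035977, 3L 9349609 to 9351489, plus strand), the blocker of PGRP-LC, has exons that overlap UGP on the other strand. It had 0.964, 0.575 and 1.08 CPM in dsx SH and 0.941, 0.918 and 0.934 CPM in dsx GH libraries, against 0.331, 0.708 and 0.676 CPM in CS SH and 0.529, 0.499 and 1.04 CPM in CS GH libraries. The groups overlapped in both housings, in GH through the AC library of CS. With the batch term it rose in dsx by 0.97 ± 0.277 log2 in SH (adjusted p = 0.00749) and 0.87 ± 0.275 log2 in GH (adjusted p = 0.0268). The GH call was lost without any single one of the 6 libraries compared (adjusted p up to 0.082), and in notAC libraries neither passed (adjusted p = 0.07 in SH and 0.0629 in GH). In fru GH, with 0.969, 1.16 and 2.11 CPM, it rose by 1.04 ± 0.269 log2 (adjusted p = 0.0088, and 0.0594 in notAC libraries). Without the batch term all 3 of these calls were lost, at an adjusted p of 0.301 in dsx SH, 0.537 in dsx GH and 0.173 in fru GH.

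PGRP-SD (FBgn0035806, 3L 7651180 to 7651900, plus strand, exons overlapping CG7492) encodes a secreted protein reported to act with both the Imd and the Toll branches. It had 2.76, 4.98 and 10.5 CPM in fru SH libraries, against 1.10, 3.56 and 0.584 CPM in CS SH libraries, with the AC library highest in each group and the groups overlapping. It rose in fru SH by 1.90 ± 0.470 log2 (adjusted p = 0.00754), a call lost without the batch term (adjusted p = 0.0807). In dsx GH it had 0.734, 0.994 and 1.34 CPM, against 3.46, 3.25 and 3.16 CPM in CS GH libraries, so that all dsx libraries lay below all CS libraries. It fell there by 1.42 log2 (SE 0.473, adjusted p = 0.0351), a call lost without dsx GH replicate 1 or 2 or CS GH replicate 1 or 2 (adjusted p up to 0.134). PGRP-LE had a mean of 16.8 CPM and was called in no comparison.

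**Figure D4:**
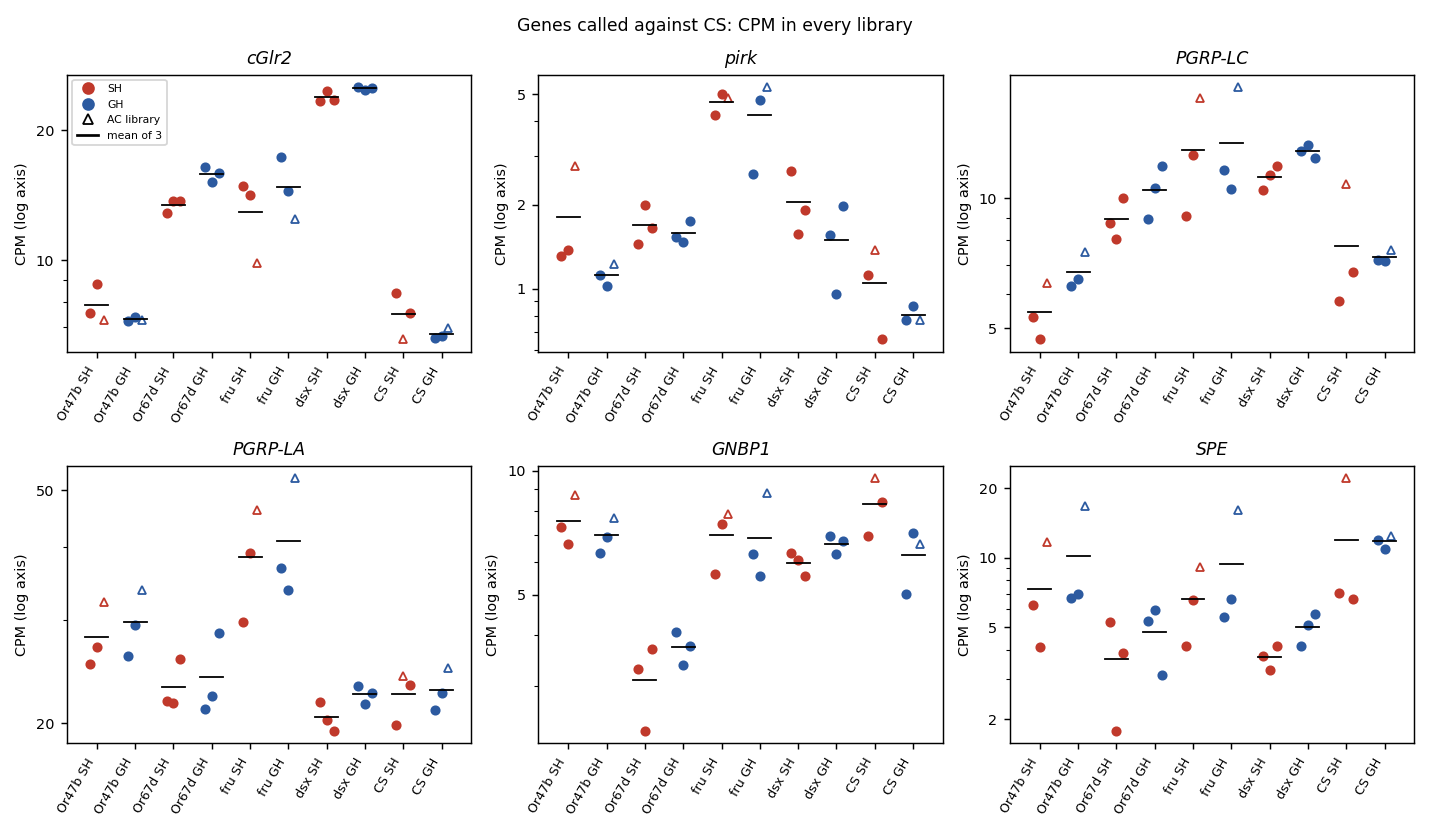
CPM of cGlr2, pirk, PGRP-LC, PGRP-LA, GNBP1 and SPE in every library (log axes), by group, with mutants left of CS and SH left of GH, where triangles are AC libraries and bars are group means. The 6 dsx libraries of cGlr2 lie between 23.3 and 25.1 CPM, against 6.57 to 8.42 CPM in CS, the 6 Or67d libraries of GNBP1 lie below all CS libraries, and pirk is highest in fru.

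Of the sensors upstream of Toll, GNBP1 was low in Or67d brains. GNBP1 (FBgn0040323, 3L 18675800 to 18677876, plus strand) works with PGRP-SA to detect peptidoglycan of the lysine type. It had 3.30, 2.34 and 3.70 CPM in Or67d SH and 4.06, 3.39 and 3.75 CPM in Or67d GH libraries, against 6.93, 9.57 and 8.40 CPM in CS SH and 5.03, 7.07 and 6.65 CPM in CS GH libraries. Every Or67d library lay below every CS library, and the other 3 mutants, at 5.54 to 8.83 CPM, lay within the range of all CS libraries. The fall in Or67d was 1.30 log2 in SH (SE 0.154, adjusted p = 3.16e-06) and 0.64 log2 in GH (SE 0.152, adjusted p = 0.00732), the second lost without CS GH replicate 2 (adjusted p = 0.0726).

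PGRP-SA, the partner of GNBP1, averaged 2.33 ± 0.908 CPM in fru GH and 0.970 ± 0.0751 CPM in CS GH libraries (SD, n = 3 each). It rose in fru GH by 1.15 ± 0.379 log2 (adjusted p = 0.0388). The call was lost without any 1 of fru GH replicates 1 to 3 or CS GH replicates 2 and 3 (adjusted p up to 0.224) and in notAC libraries (0.17). GNBP3 averaged 3.64 ± 0.0938 CPM in dsx SH and 9.09 ± 7.10 CPM in CS SH libraries. It fell in dsx SH by 0.65 log2 (SE 0.247, adjusted p = 0.0389). This was lost with RLE scaling, in notAC libraries (adjusted p = 0.131) and without dsx SH replicates 1, 2 or 3 or CS SH replicates 1 or 2 (up to 0.178). GNBP2, a relative of both, was called in no comparison with CS.

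The amidases, secreted enzymes that cut peptidoglycan and damp the Imd response, had the widest spread between libraries. PGRP-SB1 (FBgn0043578, 3L 16727299 to 16727989, minus strand) had 1.78, 2.47 and 1.55 CPM in Or67d GH libraries, against 10.5, 7.37 and 9.43 CPM in CS GH libraries. PGRP-SC2 (FBgn0043575, 2R 8716950 to 8717695, plus strand) had 0.134, 0.112 and 0.229 CPM in Or67d GH libraries, against 2.07, 1.82 and 2.58 CPM in CS GH libraries. All 3 Or67d libraries lay below all 3 CS libraries for both genes. The falls were 1.89 log2 for PGRP-SB1 (SE 0.474, adjusted p = 0.0106) and 3.34 log2 for PGRP-SC2 (SE 0.835, adjusted p = 0.0105). The call of PGRP-SB1 was lost without Or67d GH replicate 3 or CS GH replicate 1 (adjusted p up to 0.0794) and that of PGRP-SC2 without Or67d GH replicate 2 (adjusted p = 0.0553).

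In SH the highest CS value of each tested amidase was that of the AC library. PGRP-SC2 had 0.810, 2.51 and 2.71 CPM in fru SH libraries, against 0.0827, 1.01 and 0.146 CPM in CS SH libraries, overlapping through the AC library of CS. It rose in fru SH by 2.64 ± 0.782 log2 (adjusted p = 0.0256), a call lost without fru SH replicate 2 or CS SH replicate 1 or 3 (adjusted p up to 0.123). PGRP-SB1 had 6.86, 4.00 and 14.2 CPM in dsx SH libraries, against 3.14, 13.2 and 2.48 CPM in CS SH libraries, again overlapping. It rose in dsx SH by 1.16 ± 0.466 log2 (adjusted p = 0.0494), which was lost without dsx SH replicate 1 or 3 or CS SH replicate 1 or 3 (adjusted p up to 0.392). PGRP-LB, an amidase with secreted and intracellular forms, had 2.34, 3.12 and 5.36 CPM in fru SH libraries, against 1.72, 2.60 and 1.17 CPM in CS SH libraries. It rose by 0.96 ± 0.214 log2 (adjusted p = 0.00315) although 1 CS library, the AC one, lay above the lowest fru library, and the call was lost without the batch term (adjusted p = 0.11). PGRP-LD (FBgn0260458, 3L 5780051 to 5784685) is a PGRP gene not counted here among the amidases. It had 3.48, 4.62 and 4.53 CPM in dsx SH libraries, against 10.7, 3.82 and 11.8 CPM in CS SH libraries. It fell by 1.06 log2 (SE 0.348, adjusted p = 0.0176), and the call was lost without dsx SH replicate 1 or CS SH replicate 1 or 3 (adjusted p up to 0.117).

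In the protease cascade that prepares the ligand of Toll, SPE was lower in Or67d and dsx, and nec was higher in fru and lower in dsx SH. SPE (FBgn0039102, 3R 23686255 to 23688147, plus strand, exons overlapping CG18754) encodes the enzyme that cleaves Spätzle. It had 3.76, 3.27 and 4.17 CPM in dsx SH and 4.15, 5.12 and 5.71 CPM in dsx GH libraries. In Or67d it had 5.28, 1.79 and 3.88 CPM in SH and 5.31, 5.93 and 3.10 CPM in GH libraries. CS had 7.01, 22.0 and 6.61 CPM in SH and 12.0, 10.9 and 12.4 CPM in GH libraries. Every dsx and Or67d library lay below every CS library, of which the AC library in SH was highest. The fall in dsx was 1.09 log2 in SH (SE 0.322, adjusted p = 0.00909) and 0.93 log2 in GH (SE 0.309, adjusted p = 0.034). The fall in Or67d was 1.12 log2 in SH (SE 0.322, adjusted p = 0.04) and 0.99 log2 in GH (SE 0.311, adjusted p = 0.0442). The call in dsx SH held throughout. That in dsx GH was lost without dsx GH replicate 1 or 2 or CS GH replicate 1 or 2 (up to 0.148). That in Or67d SH was lost without Or67d SH replicate 2 or 3 or CS SH replicate 1 or 2 (up to 0.193) and in notAC libraries (0.145). That in Or67d GH was lost without Or67d GH replicate 1 or 3 or CS GH replicate 1 or 2 (up to 0.234).

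The serpin gene nec lies at 2R 7156477 to 7158241 on the minus strand (FBgn0002930). It had 67.6, 81.3 and 144 CPM in fru SH and 66.8, 65.2 and 122 CPM in fru GH libraries, against 52.7, 98.0 and 50.2 CPM in CS SH and 43.3, 53.9 and 54.1 CPM in CS GH libraries. The fru GH libraries all lay above the CS GH libraries, and in SH the groups overlapped through the AC library of CS. nec rose in fru by 0.54 ± 0.128 log2 in SH (adjusted p = 0.00516, and 0.0529 without fru SH replicate 3) and by 0.66 ± 0.129 log2 in GH (adjusted p = 0.000714). Both calls were lost without the batch term, at an adjusted p of 0.325 in SH and 0.111 in GH. In dsx SH, with 39.7, 36.2 and 37.3 CPM, all libraries lay below those of CS, and nec fell by 0.52 log2 (SE 0.132, adjusted p = 0.0034). modSP, a protease at the top of the cascade, averaged 5.51 ± 3.57 CPM in fru GH and 2.98 ± 1.11 CPM in CS GH libraries and rose by 0.76 ± 0.250 log2 (adjusted p = 0.0393). That call was lost without any of fru GH replicates 1 to 3 or CS GH replicates 2 and 3 (up to 0.213) and in notAC libraries (0.295). psh was called in no comparison with CS, nor was spz, the gene of Spätzle itself.

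Within the Toll pathway proper, dl rose in dsx, and smaller changes of Tl, Myd88 and pll also passed the test. dl (FBgn0260632, 2L 17436830 to 17450364, minus strand) encodes the NF-κB factor Dorsal. It had 9.34, 9.27 and 9.55 CPM in dsx SH and 11.2, 10.4 and 10.2 CPM in dsx GH libraries, against 5.29, 9.53 and 4.62 CPM in CS SH and 6.08, 6.53 and 6.36 CPM in CS GH libraries. The dsx libraries lay above the CS libraries except for the AC library of CS SH. dl rose by 0.73 ± 0.146 log2 in SH (adjusted p = 0.000429) and 0.88 ± 0.143 log2 in GH (adjusted p = 9.92e-05). Tl averaged 151 ± 6.38 CPM in dsx SH and 112 ± 28.7 CPM in CS SH libraries. It rose by 0.31 ± 0.111 log2 (adjusted p = 0.0302), a call lost without dsx SH replicate 2 or 3 or CS SH replicate 2 or 3 (up to 0.181) and in notAC libraries (0.0601).

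Myd88, the adaptor of the Toll receptor, averaged 9.17 ± 1.23 CPM in Or47b SH and 11.9 ± 1.21 CPM in CS SH libraries and fell by 0.38 log2 (SE 0.111, adjusted p = 0.0372). In fru GH it averaged 14.3 ± 3.36 CPM, against 11.2 ± 1.23 CPM in CS GH, and rose by 0.33 ± 0.110 log2 (adjusted p = 0.0383). The first call was lost without any 1 of the 6 libraries (up to 0.162). The second was lost without fru GH replicate 1 or 3 or CS GH replicate 1 or 3 (up to 0.188). Both were lost in notAC libraries (0.107 in Or47b SH and 0.298 in fru GH). pll, the kinase Pelle downstream of Myd88, averaged 6.52 ± 0.0342 CPM in Or67d GH and 6.64 ± 0.830 CPM in fru GH libraries, against 5.25 ± 0.204 CPM in CS GH libraries. It rose by 0.34 log2 in both, with an adjusted p of 0.0488 in Or67d GH and 0.0305 in fru GH. The call in Or67d was lost without any 1 of the 6 libraries (up to 0.125) and that in fru without fru GH replicate 1 or 3 or CS GH replicate 2 or 3 (up to 0.197). Both failed in notAC libraries (0.0577 in Or67d and 0.207 in fru). tub (the adaptor Tube), cact and Dif were called in no comparison with CS.

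Inside the Imd pathway, the inhibitor pirk was higher in Or67d GH, fru and dsx, whereas the caspase Dredd and the kinase subunit key were lower in dsx. pirk (FBgn0034647, 2R 21660967 to 21662995, minus strand) encodes a protein that takes PGRP-LC away from the cell surface and damps the pathway. In fru it had 4.20, 5.02 and 4.85 CPM in SH and 2.59, 4.78 and 5.30 CPM in GH libraries. In dsx it had 2.66, 1.57 and 1.91 CPM in SH and 1.56, 0.956 and 1.98 CPM in GH libraries. CS had 1.12, 1.37 and 0.657 CPM in SH and 0.769, 0.867 and 0.771 CPM in GH libraries, below every fru and dsx library of the same housing. The rise in fru was 2.19 ± 0.286 log2 in SH (adjusted p = 6.74e-06) and 2.36 ± 0.291 log2 in GH (adjusted p = 2.71e-06). In dsx it was 1.13 ± 0.289 log2 in SH (adjusted p = 0.00327) and 1.03 ± 0.290 log2 in GH (adjusted p = 0.0131). In Or67d GH, with 1.53, 1.48 and 1.74 CPM, it was 1.11 ± 0.292 log2 (adjusted p = 0.0155). The call in dsx GH was lost without dsx GH replicate 3 or CS GH replicate 3 (up to 0.0827). That in Or67d GH was lost without Or67d GH replicate 3 or CS GH replicate 3 (up to 0.0658), and both were lost in notAC libraries (0.0566 in dsx and 0.0659 in Or67d).

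Dredd (FBgn0020381, X 633622 to 635545, minus strand) encodes the caspase that cleaves Imd and Relish. It had 9.34, 9.67 and 9.29 CPM in dsx SH and 7.64, 8.39 and 8.43 CPM in dsx GH libraries, against 12.0, 16.2 and 13.3 CPM in CS SH and 11.7, 12.5 and 11.5 CPM in CS GH libraries. It fell by 0.46 log2 in SH (SE 0.115, adjusted p = 0.00298) and 0.47 log2 in GH (SE 0.115, adjusted p = 0.00499). The gene key lies at 2R 24785514 to 24787411 on the minus strand (FBgn0041205). It had 35.4, 34.4 and 35.7 CPM in dsx SH and 35.1, 34.6 and 36.8 CPM in dsx GH libraries, against 43.5, 50.5 and 46.7 CPM in CS SH and 43.9, 45 and 47.3 CPM in CS GH libraries. For both genes every dsx library lay below every CS library. key fell by 0.38 log2 in SH (SE 0.0651, adjusted p = 0.000103) and 0.32 log2 in GH (SE 0.0648, adjusted p = 0.000999). imd, the adaptor that names the pathway, averaged 8.04 ± 0.490 CPM in dsx SH and 10.2 ± 0.669 CPM in CS SH libraries and fell by 0.35 log2 (SE 0.102, adjusted p = 0.00848). Tab2, the partner of the kinase Tak1, averaged 8.46 ± 0.201 CPM in dsx GH and 11.7 ± 1.97 CPM in CS GH libraries. It fell by 0.34 log2 (SE 0.111, adjusted p = 0.0329), but the call was lost with RLE scaling and without dsx GH replicates 1, 2 or 3 or CS GH replicate 2 (up to 0.265). Rel, Fadd (the adaptor that recruits Dredd) and Tak1 were called in no comparison with CS.

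In the JAK/STAT pathway the calls were those of dsx SH brains. Stat92E averaged 178 ± 4.39 CPM in dsx SH and 118 ± 18.9 CPM in CS SH libraries and rose by 0.49 ± 0.108 log2 (adjusted p = 0.00112). dome, the receptor Domeless, averaged 64.3 ± 2.33 CPM in dsx SH and 77.0 ± 3.49 CPM in CS SH libraries and fell by 0.31 log2 (SE 0.0837, adjusted p = 0.00472). hop, the Janus kinase, was called in no comparison with CS.

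The gene cGlr2 separated the strains more clearly than any other of the 41 genes. Among them it had the smallest adjusted p in 5 of the 6 comparisons with CS in Or67d, fru and dsx. cGlr2 (FBgn0050424, 2R 24965275 to 24967298, minus strand) encodes a cGAS-like receptor, which makes a cyclic dinucleotide that activates STING. It had 23.3, 24.7 and 23.4 CPM in dsx SH and 25.1, 24.8 and 25.1 CPM in dsx GH libraries. In Or67d the values were 12.9, 13.7 and 13.7 CPM in SH and 16.4, 15.2 and 15.9 CPM in GH libraries. In fru it had 14.8, 14.2 and 9.87 CPM in SH and 17.3, 14.5 and 12.4 CPM in GH libraries, with the AC library lowest in each group. In Or47b it had 7.55, 8.84 and 7.29 CPM in SH and 7.23, 7.40 and 7.28 CPM in GH libraries, against 8.42, 6.57 and 7.58 CPM in CS SH and 6.61, 6.70 and 6.97 CPM in CS GH libraries. All dsx libraries thus lay above all others, the Or67d and fru libraries overlapped each other and lay between dsx and CS, and Or47b was not called in either housing.

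The rise of cGlr2 in dsx was 1.59 ± 0.0993 log2 in SH (adjusted p = 3.76e-11) and 1.81 ± 0.101 log2 in GH (adjusted p = 4.05e-12). In Or67d it was 0.77 ± 0.0988 log2 in SH (adjusted p = 1.08e-05) and 1.15 ± 0.10 log2 in GH (adjusted p = 1.8e-08). In fru it was 0.78 ± 0.0971 log2 in SH (adjusted p = 3.59e-06) and 1.11 ± 0.0980 log2 in GH (adjusted p = 1.55e-08). Sting (FBgn0033453, 2R 9842686 to 9845512, plus strand, exons overlapping Orc6) encodes the receptor of the dinucleotide. It had 6.53, 8.51 and 14.5 CPM in fru SH and 8.70, 8.04 and 11.9 CPM in fru GH libraries, against 3.74, 5.45 and 4.58 CPM in CS SH and 4.54, 4.23 and 5.33 CPM in CS GH libraries. All fru libraries lay above all CS libraries. Sting rose by 1.06 ± 0.234 log2 in fru SH (adjusted p = 0.00281, and 0.0689 in notAC libraries) and by 1.01 ± 0.234 log2 in fru GH (adjusted p = 0.0037). In dsx GH 1 library of 11.2 CPM stood above the other two at 4.69 and 6.16 CPM. The rise of 0.78 ± 0.237 log2 (adjusted p = 0.021) was lost without dsx GH replicate 2 or CS GH replicate 2 or 3 (up to 0.265). cGlr2 was thus higher in Or67d brains of both housings, where Sting was not called.

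The thioester proteins bind to microbes and aid their uptake. Tep2 (FBgn0041182, 2L 7693727 to 7701601, exons overlapping CG43235) had 93.7, 97.8 and 132 CPM in fru GH and 67.1, 80.2 and 80.8 CPM in Or67d GH libraries, against 53.0, 58.1 and 67.8 CPM in CS GH libraries. The fru libraries lay above all CS libraries, and the lowest Or67d library overlapped the AC library of CS. Tep2 rose by 0.84 ± 0.135 log2 in fru GH (adjusted p = 8.88e-05) and by 0.56 ± 0.136 log2 in Or67d GH (adjusted p = 0.00915), the second lost without the batch term (adjusted p = 0.544). Tep2 had 53.0, 56.0 and 59.7 CPM in dsx SH libraries, against 67.5, 132 and 63.8 CPM in CS SH libraries, all 3 dsx libraries below CS. It fell by 0.37 log2 (SE 0.138, adjusted p = 0.0365), a call lost with RLE scaling, in notAC libraries (0.0864) and without dsx SH replicate 1 or 2 or CS SH replicate 2 (up to 0.212). Tep1 averaged 1.16 ± 0.367 CPM in dsx SH and 0.591 ± 0.300 CPM in CS SH libraries. It rose by 0.87 ± 0.304 log2 (adjusted p = 0.0247), a call lost without dsx SH replicate 1 or 3 or CS SH replicate 1 or 2 (up to 0.124) and in notAC libraries (0.118). Tep4 averaged 11.9 ± 4.86 CPM in Or47b SH and 23.0 ± 17.4 CPM in CS SH libraries. It fell by 0.80 log2 (SE 0.237, adjusted p = 0.04), a call lost without Or47b SH replicate 2 or 3 or CS SH replicate 2 or 3 (up to 0.299) and in notAC libraries (0.27).

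Marker genes of other cells moved in the same comparisons. Their counts stand beside these shares of all genes. In fru GH 9.37% rose and 7.65% fell, and in fru SH 7.47% rose and 6.12% fell. In Or67d GH 5.13% rose and 4.64% fell, and in Or47b SH 4.2% rose and 4.23% fell. In dsx GH 8.12% rose and 13.6% fell, and in dsx SH 18.7% rose and 23.4% fell. Of 7 tested haemocyte markers, 5 rose in fru GH and 3 rose and 1 fell in fru SH. Among the risers were Hml (1.22 log2 in GH and 1.31 in SH), NimC1 (1.31 in GH and 1.64 in SH) and Sr-CI (1.37 in GH and 1.60 in SH). The summed haemocyte list was 357 to 443 CPM in fru SH and 366 to 424 CPM in fru GH, against 364 to 408 CPM in CS SH and 317 to 346 CPM in CS GH. The defining marker He was at most 0.224 CPM and at 0 in 4 libraries. In Or67d GH 2 haemocyte markers rose and the sum was 438 to 450 CPM. In dsx 3 rose in GH, and 3 rose and 1 fell in SH, with sums of 376 to 394 CPM in SH and 378 to 408 CPM in GH. Fat body markers summed to 1296 to 1918 CPM in dsx, 597 to 4220 CPM in fru and 652 to 1787 CPM in CS, with the marker Fbp2 at 0 in 25 libraries. Of the 7 tested, 3 rose in dsx GH, and 3 rose and 2 fell in dsx SH. The sum includes the yolk protein genes Yp1 and Yp2, so it does not by itself give the fat body content of dsx brains. Yp1 and Yp2 rose in both housings of dsx, by 7.36 and 6.63 log2 in SH. The storage protein gene Lsp1beta, also in the sum, had a log2 change of -2.68 in dsx SH (adjusted p = 7.89e-05). Lsp1beta rose in fru, by 1.63 log2 in SH and 1.42 in GH, and fell in both housings of Or47b, with a log2 change of -1.94 in SH and -2.43 in GH. Neuronal and glial markers moved too. Of the 5 neuronal markers 4 rose in dsx SH, among them Syt1 (0.86 log2), elav (0.83) and para (0.77), and Syt1 rose in dsx GH (0.43). Their sum was 9669 to 9920 CPM in dsx SH and 9011 to 9620 CPM in dsx GH, against 6217 to 6816 CPM in CS SH and 7318 to 8853 CPM in CS GH, so that the dsx libraries lay above the CS libraries in both housings. Of the 5 glial markers 2 fell in dsx SH, where 23.4% of all genes fell. These were repo (log2 change -0.47) and wrapper (-0.38), while the summed list was 1167 to 1279 CPM in dsx SH, against 812 to 1248 CPM in CS SH. In fru the astrocyte marker alrm fell in both housings (log2 change -0.76 in SH and -0.57 in GH), and moody rose in SH (0.40). Photoreceptor markers fell in dsx SH (2 of 5) and Or47b SH (1 of 5), and in fru SH 1 rose and 1 fell. All 5 muscle markers fell in the SH brains of Or47b, fru and dsx relative to CS. The part of these cells in the changes of the immune genes was not tested.

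Housing changed few of these genes, and the ones that passed were an amidase and the inhibitor of the Imd receptor, both lower in SH. Averaged over the 5 genotypes, 0 genes rose and 2 fell, where 1.28% of all tested genes were called and 0.719% fell. PGRP-SC2 had 0.0827, 1.01 and 0.146 CPM in CS SH libraries, against 2.07, 1.82 and 2.58 CPM in CS GH libraries. In Or47b it had 1.03, 0.487 and 0.460 CPM in SH libraries, against 1.46, 1.17 and 14.8 CPM in GH libraries. In fru the values were 0.810, 2.51 and 2.71 CPM in SH libraries, against 3.81, 4.52 and 3.73 CPM in GH libraries. In these 3 genotypes every SH library lay below every GH library, and 14.8 CPM in the AC library of Or47b GH was the highest value of all. In Or67d it had 0.298, 0.121 and 0.157 CPM in SH libraries, against 0.134, 0.112 and 0.229 CPM in GH libraries. In dsx it had 0.315, 0.175 and 0.366 CPM in SH libraries, against 0.282, 0.688 and 2.06 CPM in GH libraries, and in both genotypes the housings overlapped. The mean fall was 1.58 log2 (SE 0.352, adjusted p = 0.0189), and the call was lost without Or67d GH replicate 3 (adjusted p = 0.0532) and without the batch term (adjusted p = 0.0837).

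**Figure D5:**
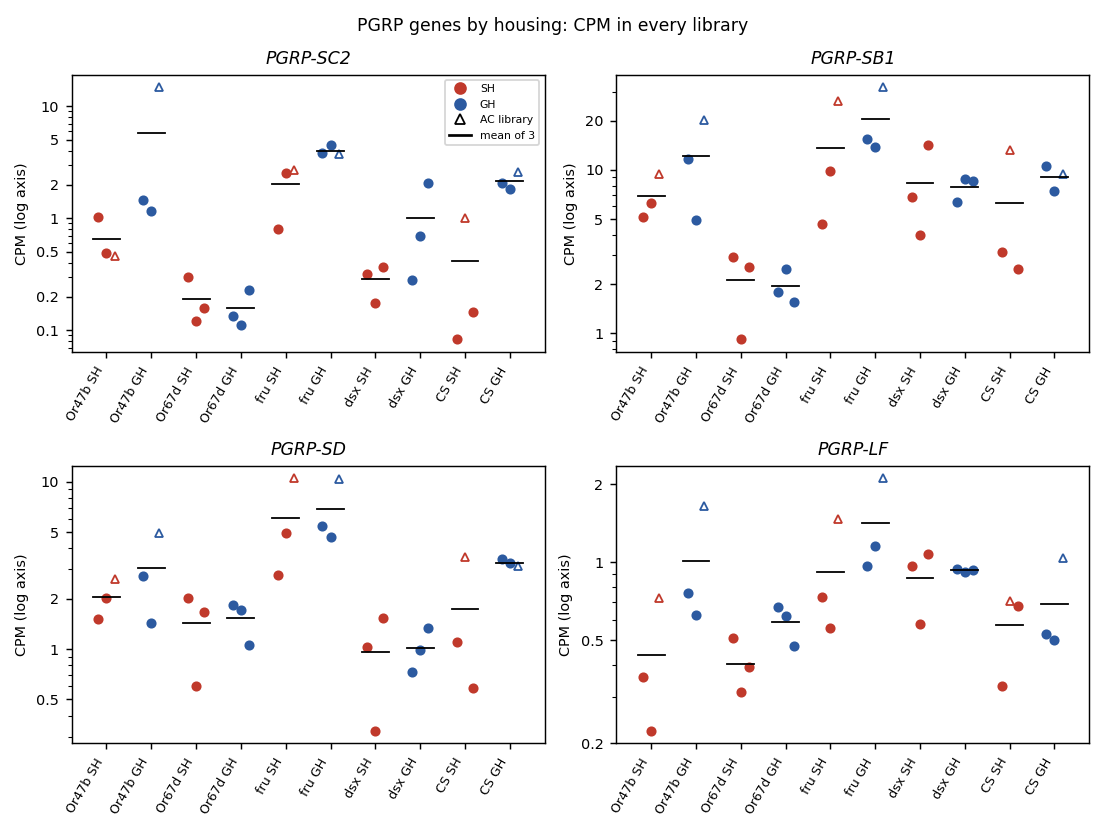
CPM of PGRP-SC2, PGRP-SB1, PGRP-SD and PGRP-LF in every library (log axes), by genotype with SH left of GH, where triangles are AC libraries and bars are group means. PGRP-SC2 lies lower in every SH library than in every GH library of CS, Or47b and fru, overlaps between housings in Or67d and dsx, and reaches 14.8 CPM in the AC library of Or47b GH.

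PGRP-LF had 0.359, 0.223 and 0.727 CPM in Or47b SH libraries, against 0.759, 0.623 and 1.65 CPM in Or47b GH libraries. In Or67d it had 0.511, 0.314 and 0.392 CPM in SH libraries, against 0.671, 0.617 and 0.476 CPM in GH libraries. In fru it had 0.736, 0.558 and 1.47 CPM in SH libraries, against 0.969, 1.16 and 2.11 CPM in GH libraries, and its CS and dsx values are given above. The housings overlapped in every genotype, and the AC library was the highest of each Or47b, fru and CS group. The mean fall was 0.53 log2 (SE 0.122, adjusted p = 0.0236), lost without Or47b GH replicate 3 or CS SH replicate 2 (up to 0.0523), without the batch term (adjusted p = 0.604) and in notAC libraries (0.162). The log2 change with SH was negative in all 5 genotypes for PGRP-LA, PGRP-LF, PGRP-SD and SPE and positive in all 5 for Dredd and pirk, of which PGRP-LF passed the test. Some of these changes were near 0, such as -0.02 for PGRP-LA in CS and 0.02 for Dredd in Or47b. The share of all genes with the same sign in all 5 genotypes was not counted.

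Few markers of other cells were called for housing. On average over the 5 genotypes the fat body marker Lsp2 rose in SH by 2.00 ± 0.292 log2 (adjusted p = 0.000267), the single call among the 7 fat body markers. The markers of neurons, glia, haemocytes, photoreceptors, muscle and midgut gave 0 calls for the mean housing effect. Within genotypes, the haemocyte marker Hml fell in Or67d SH (log2 change -0.94, adjusted p = 0.0181) and the midgut marker Amy-p in CS SH (-4.74, adjusted p = 0.0284). Midgut markers summed to 5.09 to 5.79 CPM in CS SH and 6.20 to 314 CPM in CS GH libraries. The part of these cells in the housing values was not tested.

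Within single genotypes no gene was called by edgeR for housing, where edgeR called 1.86% of all genes in CS. In CS, 10 of the 41 genes had an unadjusted p under 0.05, where 18.5% of all genes did, and DESeq2 called 2, where it called 663 genes in all. The 2 with the smallest p in CS were Tep2, at a log2 change of 0.49 (adjusted p = 0.0601), and PGRP-SC2, at -2.80 (adjusted p = 0.0629, and -4.01 with adjusted p = 0.0234 in notAC libraries). In Or47b, where edgeR called 0.213% of all genes, 5 of the 41 had an unadjusted p under 0.05, as did 4.29% of all genes, and DESeq2 called 2, of 42 in all. PGRP-LB at -0.94 (adjusted p = 0.0904) and PGRP-LF at -1.22 (adjusted p = 0.0938) led there. In Or67d the unadjusted count was 1 (3.02% of all genes), in fru 3 (10.5%) and in dsx 3 (3.39%). DESeq2 called 0 of the 41 in these genotypes, and edgeR called 0.0266%, 0.169% and 0.0177% of all genes in Or67d, fru and dsx. The leading genes were cGlr2 at -0.24 and PGRP-LF at -0.53 in Or67d, and Sting at -0.60 and PGRP-SC2 at -1.78 in dsx, all with an adjusted p of 1. In fru they were Stat92E at -0.27 (adjusted p = 0.392) and PGRP-LF at -0.64 (adjusted p = 0.402).

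Whether a mutant's response to housing differed from that of CS was tested directly, and 0 of the 41 genes passed in any mutant with edgeR. Of all genes edgeR called 0.0177% in Or47b, 0.177% in Or67d, 0.222% in fru and 0.00887% in dsx. An unadjusted p under 0.05 was found for 2 of the 41 genes in Or47b (8.3% of all genes), 7 in Or67d (14.3%), 3 in fru (8.12%) and 4 in dsx (13.4%). DESeq2 called 1 of the 41 in dsx and 0 in the other mutants. The leading differences, SH minus GH in the mutant minus the same in CS, were PGRP-LF at -1.03 ± 0.394 log2 (adjusted p = 0.558) and Stat92E at 0.33 (adjusted p = 0.589) in Or47b. In Or67d they were GNBP1 at -0.66 (adjusted p = 0.202) and Tep2 at -0.57 (adjusted p = 0.208). In fru they were PGRP-LB at 0.76 (adjusted p = 0.511) and Tep2 at -0.46 (adjusted p = 0.533), and in dsx Tep2 at -0.69 (adjusted p = 0.21) and GNBP1 at -0.55 (adjusted p = 0.286). Tak1 was higher in all SH than in all GH libraries of CS and lower in all SH than in all GH libraries of dsx, with an interaction of -0.21 ± 0.102 log2 (adjusted p = 0.374). In dsx the gap was small, from 55.69 CPM in SH to 55.75 CPM in GH. Of the 41 genes, 2 lay above and 8 below in all SH libraries of dsx, with 0 called. In CS 2 lay above and 1 below, in Or47b and in Or67d 1 above and 2 below, and in fru 0 above and 1 below. The share of all genes without overlap was not counted, so no result is drawn from these counts. PGRP-SC2, whose groups overlapped in Or67d, had an interaction there of 3.07 ± 1.22 log2 (adjusted p = 0.257).

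Many of the products that these pathways switch on were lower in SH on average, with counts that differed between genotypes. Averaged over genotypes, 8 of 12 antimicrobial peptide genes of the Imd type fell in SH relative to GH (median log2 change of the list -2.17, against -0.00 over all tested genes). Of the effectors of the Toll type 14 of 16 fell (median -1.21), where 0.719% of all tested genes fell. Within genotypes, the unadjusted p for housing was under 0.05 for 12 peptide genes in CS, 11 in Or47b and 7 in fru. It was so for 0 in Or67d and 1 in dsx. For the effectors the counts were 13 in CS, 14 in Or47b, 7 in fru, 4 in Or67d and 15 in dsx. Of all genes 18.5% reached this in CS, 4.29% in Or47b, 10.5% in fru, 3.02% in Or67d and 3.39% in dsx. Of the further pathway genes, 15 were in the Imd, 13 in the Toll and 8 in the JAK/STAT pathway. For the mean housing effect, 0 of each were called by edgeR or DESeq2 or had an unadjusted p under 0.05. Within CS, 5 Imd, 1 Toll and 2 JAK/STAT genes had an unadjusted p under 0.05, and DESeq2 called 1 Toll gene lower. In fru 1 Toll and 2 JAK/STAT genes had such a p, and in Or67d 1 Toll gene did, with 0 called by DESeq2. In Or67d GH relative to CS GH, 6 of the peptide genes and 7 of the effectors fell, as did PGRP-SC2, PGRP-SB1 and SPE in the same brains. Of all genes 4.64% fell there. In fru SH relative to CS SH, 7 peptide genes and 3 effectors rose, as did PGRP-SC2, PGRP-SD and PGRP-LB. Of all genes 7.47% rose there. In Or47b SH relative to CS SH, 4 peptide genes rose and 1 effector fell, where 0 of the 41 recognition and signalling genes rose and 3 fell. Of all genes 4.2% rose and 4.23% fell there. The peptide genes that rose in Or47b SH included DptA (5.65 ± 1.09 log2, adjusted p = 0.0021), DptB (5.74 ± 1.21 log2, adjusted p = 0.00431) and AttC (3.01 ± 0.770 log2, adjusted p = 0.0188). In Or67d SH 0 peptide genes and 0 effectors were called by edgeR, with 0 peptide genes and 1 effector at an unadjusted p under 0.05 and 1 effector called by DESeq2. In fru GH, where 12 of the 41 recognition and signalling genes rose, 0 of the 12 peptide genes and 0 of the 16 effectors were called by edgeR. Of the peptide genes 2 and of the effectors 1 were at an unadjusted p under 0.05 and 0 of either called by DESeq2. In dsx SH relative to CS SH, 10 peptide genes rose, whereas 0 of the 16 effectors were called by edgeR, were at an unadjusted p under 0.05 or were called by DESeq2. Of the further pathway genes in dsx SH, 4 of 15 in the Imd pathway rose, and of 13 in the Toll pathway 4 rose and 1 fell. Of all genes 18.7% rose and 23.4% fell in dsx SH, so these pathway counts do not set the 2 pathways apart.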

How the data were processed

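Per the labels' protocols, RNA of 30 brains a library was sequenced as paired-end reads after a stranded kit for polyadenylated RNA. The deposited table holds the authors' expected counts (estimated counts per feature, not scaled between libraries), of which 11.9% were not whole. The submitters' processing notes name STAR, Salmon, DESeq2 and the build BDGP6. Versions and the use of strand in counting are not given in the sources used here. The deposited normalized signal values were not used. Counts were rounded, and positions, exon lengths and overlaps came from the Ensembl annotation of the same build, in which all 45 genes were found.

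In R 4.3.3, edgeR 4.0.16 fitted all 30 libraries at once (filterByExpr on the groups, 11269 of 17895 genes kept, TMM scaling, a term per group and a term for the AC libraries, common dispersion 0.0262, 19 residual degrees of freedom). Quasi-likelihood F tests were adjusted by Benjamini-Hochberg over all tested genes within a comparison, and called at an adjusted p under 0.05. Group values are mean ± SD of CPM. The comparisons were SH minus GH in each genotype and on average, each mutant minus CS in each housing, the differences of the housing effects from CS, and any difference among the groups. Alternatives were RLE scaling, DESeq2 1.42.0, no filter, no batch term, notAC libraries alone, a replicate block, and each library left out. The fit was tested on simulated data.

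The genes and lists were chosen with earlier results of these data known. Every gene called in a comparison is named, or the 2 with the smallest p where none was, and values per library are given for genes called for housing or in both housings of a mutant and for the leading genes of a role. The floor of 3 counts covers counting error only.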

Additional observations from a re-analysis of the deposited data

How the results depend on the processing

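Of the 67 calls named for single genes, RLE scaling kept 64, DESeq2 67, no filter 60, and the fit without the batch term 35. The notAC libraries alone kept 47 and the replicate block 59. Without each library in turn 37 were kept, and none of the 67 changed direction. RLE moved no count of called genes beyond 1.5 times and shifted the median of all genes by at most 0.0395 log2. With DESeq2 the genes called were 2 for housing in CS, 2 for housing in Or47b, 1 in Or47b GH and 5 in Or47b SH. They were 5 in Or67d SH and 1 for the difference in housing effect of dsx, and with no filter 1 in Or47b SH. Without the batch term they were 0 for the mean housing effect, 4 in Or67d GH, 6 in fru GH, 5 in dsx GH, 0 in Or47b SH and 5 in fru SH. Calls lost without the batch term but kept in notAC libraries included PGRP-LC in dsx SH and Or67d GH, Tep2 in Or67d GH, nec in fru GH and PGRP-LB in fru SH; the cause was not tested. In notAC libraries the counts were 1 for housing in CS, 1 for the mean housing effect, 7 in fru GH and 0 in Or47b SH.

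Leaving out 1 library at a time gave 0 to 3 calls for housing in CS (1 without CS SH replicate 1 and 3 without CS GH replicate 2), and 1 to 2 for the mean housing effect (1 without Or47b GH replicate 3, Or67d GH replicate 3 or CS SH replicate 2). In GH it gave 0 to 1 in Or47b (1 without Or47b GH replicate 1 or CS GH replicate 1), 5 to 9 in Or67d, 8 to 12 in fru and 6 to 9 in dsx. In SH it gave 0 to 3 in Or47b, 2 to 4 in Or67d, 8 to 13 in fru and 13 to 16 in dsx, and 28 to 35 for any difference among the groups. The other comparisons stayed at 0.

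Libraries with the same replicate number did not deviate together (6 of 15 pairs between housings and 6 of 24 between genotypes correlated over 0.1), so the numbers were not taken to pair the samples. Between housings 6 of 15 libraries correlated best with their own number, and between genotypes 9 of 24. The replicate block called 1 gene in Or47b GH, 12 in fru GH, 9 in dsx GH, 7 in Or67d GH, 2 in Or47b SH, 2 in Or67d SH and 17 in dsx SH.

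Genes near 1 CPM, such as PGRP-LF, PGRP-SC2 and Tep1, rest on the fewest counts, down to 4 in a library for PGRP-SC2.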

Other observations

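Genes next to these pathways also separated fru and dsx brains from CS. The Turandot genes encode secreted peptides induced by stress, partly through JAK/STAT signalling. Of the 4 tested, 4 rose in fru SH and 3 in fru GH relative to CS, with a median log2 change of 5.68 in SH and 3.32 in GH. Of all genes 7.47% rose in fru SH and 9.37% in fru GH. TotX rose in fru by 5.11 ± 0.659 log2 in SH (edgeR adjusted p = 5.91e-06) and 4.50 ± 0.624 log2 in GH (adjusted p = 1.32e-05). It also rose in Or67d, by 2.50 ± 0.654 log2 in SH (adjusted p = 0.0219) and 2.72 ± 0.599 log2 in GH (adjusted p = 0.00389). TotC rose in fru SH by 7.60 ± 0.857 log2 (adjusted p = 8.84e-07). It fell in SH relative to GH on average over the 5 genotypes, at a log2 change of -1.44 (SE 0.361, adjusted p = 0.0478).

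Among 9 tested thioester and scavenger genes outside the 45, Tep3 fell in several mutants. Its log2 change was -1.63 ± 0.200 in dsx SH (adjusted p = 2.24e-06) and -1.15 ± 0.196 in dsx GH (adjusted p = 0.000182). It was -0.89 ± 0.191 in fru SH (adjusted p = 0.00231), -0.77 ± 0.193 in fru GH (adjusted p = 0.00677) and -1.08 ± 0.192 in Or47b SH (adjusted p = 0.00106). Tep3 was thus lower in fru GH brains where Tep2 was higher. NimB2 and NimB4, secreted relatives of the Nimrod phagocytic receptors, fell in both housings of dsx. NimB2 had a log2 change of -1.46 ± 0.241 in dsx SH (adjusted p = 6.93e-05) and -0.92 ± 0.231 in dsx GH (adjusted p = 0.006). NimB4 had -1.15 ± 0.186 in dsx SH (adjusted p = 5.91e-05) and -0.81 ± 0.181 in dsx GH (adjusted p = 0.00244). The scavenger receptor gene Sr-CII rose in fru by 2.72 ± 0.500 log2 in SH (adjusted p = 0.00049) and 2.46 ± 0.517 log2 in GH (adjusted p = 0.00156), in the same comparisons in which the haemocyte markers Hml, NimC1 and Sr-CI rose. The part of haemocytes in this was not tested. Other settings and left-out libraries were not run for single genes of these lists.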
